A study of Mus musculus with 2 samples.

Results

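Axon guidance ligands and receptors are described here in the limb of the mouse embryo. The genes were taken by symbol from the protein-coding genes of GENCODE M21: semaphorins (Sema3 to Sema7), plexins, Eph receptors, ephrins, Slits, Robos, netrins (Ntn), the Unc5 receptors, and Dcc and Neo1. This gave 67 genes out of the 43346 mouse genes in the tables, 21474 of them protein coding. Ntn3 has the right kind of symbol but was not analysed here, because its identifier matched no row. The choice used names and no measured value.

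The study held 1 group, limb of B6NCrl mouse embryos at embryonic day 15.5, sequenced as total RNA. There were 2 libraries, each from its own pool of embryos of mixed sex: 78 embryos in replicate 1 and 62 embryos in replicate 2. No treatment and no engineered allele is given, and which limbs were dissected, fore or hind, is not stated. Since there was no second group, there was no comparison of conditions and no test, so every value below describes these 2 pools. The expected counts (estimated read counts) totalled 35104685 and 41757268 in replicates 1 and 2, of which 2.28% and 2.26% were spike-ins.

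Growing axons are steered by proteins that attract or repel their tips. Semaphorins act through plexins, ephrins through Eph receptors, Slits through Robos, and netrins through Dcc, neogenin (Neo1) and the Unc5 proteins. The same families are used outside the nervous system, in blood vessel growth, in the sorting of mesenchymal cells and in skeletal tissue, so their RNA in a limb need not come from nerve. In whole tissue, fewer cells of a type and less RNA per cell cannot be told apart.

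Levels are given in TPM, which divides reads by transcript length and scales each library to the same total, so genes can be set beside each other. Where a pair of values follows a gene, replicate 1 comes first. At least 1 TPM in both libraries was reached by 56 of the 67 genes (83.6%), against 62.7% of all protein-coding genes. At least 10 TPM in both was reached by 35 (52.2%), against 41.3% of all protein-coding genes. Under 1 TPM in both libraries lay 8 genes, while Unc5a, Ntn5 and Unc5d lay on different sides of 1 TPM in the 2 libraries. The 67 genes together held 1099 TPM and 1156 TPM in replicates 1 and 2, which is 0.119% ± 0.004 (SD, n = 2) of the TPM of all mouse genes. Summed by family, semaphorins held 281 ± 2.26 TPM, ephrins 273 ± 10.9, Eph receptors 230 ± 18.2, plexins 184 ± 5.33, Robos 74.1 ± 1.44, netrin receptors 41.5 ± 2.88, Slits 35.1 ± 2.76 and netrins 9.12 ± 0.488 (SD, n = 2). Ephrins thus held nearly as much RNA with 8 genes as semaphorins with 20. With all 67 ordered by mean TPM, the 2 libraries' ranges overlapped in 55 of the 66 neighbouring pairs, so close ranks were not separated. The counts of 8 genes were not whole, because reads were shared with other genes, and their levels are less certain: Sema4c, Plxna1, Plxnb1, Epha1, Ephb1, Efna3, Efna4 and Ntn5.

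**Figure D1:**
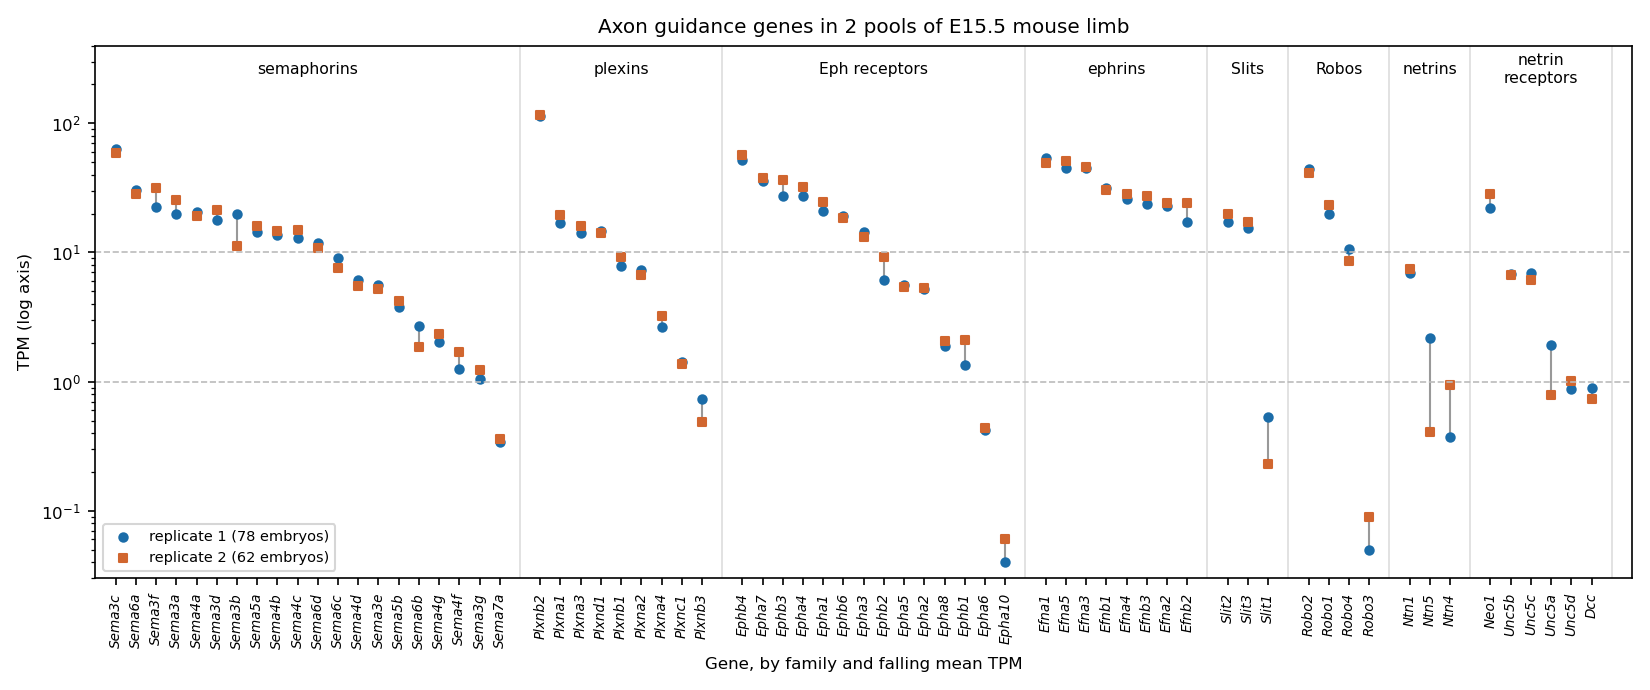
TPM (log axis) of each of the 67 genes in replicate 1 (circles) and replicate 2 (squares), by family and falling mean, with dashed lines at 1 and 10 TPM. All 8 ephrins sit above 10 TPM, and the widest gaps between the pools are at low levels, in the netrin group (Ntn5, 2.17 against 0.41 TPM).

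Among the semaphorins, 19 of 20 reached 1 TPM in both libraries and 11 reached 10 TPM. The secreted class 3 held the most, with 153 ± 3.47 TPM (SD, n = 2) over 7 genes. Sema3c (chr5:17574281-17730268) led at 63.63 TPM in replicate 1 and 59.28 TPM in replicate 2. Sema3f had 22.52 and 31.42 TPM, and Sema3a, a repellent of sensory and motor axons, had 20.01 and 25.56 TPM. Sema3d followed with 17.77 and 21.42 TPM. Within a library, Sema3c exceeded Sema3a by 1.44 ± 0.32 on the log2 scale of TPM + 0.1 (SD, n = 2), a 2.71-fold difference in level. Such ratios are read against a yardstick: 95% of single genes at a like level differed by less than this between the 2 libraries. It was 0.49 here, and Sema3c stood above Sema3a by more than that in both libraries. Sema3a and Sema3f differed by only -0.23 ± 0.09 (log2, SD, n = 2), which is inside the yardstick of 0.49. Sema3e, the ligand that binds plexin D1 without a neuropilin, had 5.55 and 5.24 TPM, and Sema3g had 1.04 and 1.24 TPM.

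Sema3b (chr9:107597674-107609229) was the class 3 gene least alike in the pools. Its level was 19.90 TPM in replicate 1 but 11.17 TPM in replicate 2, from 1231 and 818 counts. Its log2 difference, replicate 2 over replicate 1, was -0.80, past the yardstick of 0.47. Sema3f lies on the same chromosome and strand, 72270 nt away, and differed the other way, by 0.50 in log2 TPM.

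The transmembrane semaphorins were lower. Class 4, which signals through B-type plexins among others, held 57.5 ± 1.01 TPM over 6 genes, led by Sema4a with 20.73 and 19.08 TPM. Sema4b had 13.60 and 14.68 TPM and Sema4c 13.03 and 14.88 TPM, while Sema4d, which also acts in immune cells and bone, had 6.13 and 5.54 TPM. Both Sema4d values lay under the intervals the authors deposited for them, 6.54 to 9.10 TPM and 6.04 to 8.25 TPM. Sema4g, at 2.03 and 2.32 TPM, and Sema4f, at 1.25 and 1.70 TPM, closed the class. Class 6 held 51.2 ± 3.78 TPM over 4 genes (SD, n = 2). Sema6a led it with 30.32 and 28.33 TPM and stood 2.60-fold above Sema6d in TPM, a log2 ratio of 1.38 ± 0.02 (SD, n = 2) against a yardstick of 0.58. Sema6d itself had 11.73 and 10.74 TPM, Sema6c 9.12 and 7.63 TPM and Sema6b 2.71 and 1.84 TPM. All 4 class 6 genes had a higher TPM in replicate 1, and by counts Sema6c went the other way. Class 5 held 19.2 ± 1.53 TPM, most of it Sema5a at 14.31 and 16.07 TPM, with Sema5b at 3.79 and 4.20 TPM. Sema7a, a membrane-anchored semaphorin, was the lowest of the family at 0.34 and 0.36 TPM, from 24 and 31 counts.

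Plexins, the semaphorin receptors, were dominated by a single gene. Plxnb2 (chr15:89155549-89180788) had 114.16 and 116.72 TPM, the highest of all 67 genes and above 93.7% of protein-coding genes. It stood 13.3-fold above Plxnb1, a log2 ratio of 3.74 ± 0.14 in TPM (SD, n = 2), but that gap shrank to 7.33-fold when only coding transcripts were taken. Plxna1 had 16.98 and 19.48 TPM, Plxna3 14.03 and 15.94 TPM, and Plxnd1 14.54 and 14.19 TPM. These 3 receptors of class 3 semaphorins thus lay close together, under the level of Sema3c. Plxna1 was 6.04-fold above Plxna4 in TPM, a log2 ratio of 2.59 ± 0.04 (SD, n = 2), while Plxna2 over Plxna4 was 1.22 ± 0.28 and stayed inside its yardstick of 1.64. Plxnd1 was 2.63-fold above its ligand Sema3e in TPM, past the yardstick in both libraries. Plxnb1, a receptor of Sema4d, had 7.92 and 9.28 TPM. Plxna2 had 7.32 and 6.63 TPM, Plxna4 2.67 and 3.21 TPM, and Plxnc1, the receptor of Sema7a, 1.42 and 1.37 TPM. Both Plxnc1 and its ligand were thus among the low genes. The lowest plexin was Plxnb3, at 0.73 and 0.49 TPM, so the B class held both the highest and the lowest plexin.

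Neuropilins bind class 3 semaphorins together with plexins and belong to a further list of 24 co-receptors and other guidance ligands. In that list, 18 genes reached 1 TPM in both libraries and 8 reached 10 TPM. The 3 highest were the chemokine Cxcl12 with 153.91 and 140.22 TPM, Nrp1 with 53.55 and 49.25 TPM, and Flrt2, a ligand of Unc5 proteins, with 31.28 and 37.86 TPM. Nrp1 was 1.89-fold above Nrp2 in TPM, a log2 ratio of 0.92 ± 0.12 (SD, n = 2) against a yardstick of 0.49.

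Eph receptors are receptor tyrosine kinases, and 12 of 14 reached 1 TPM in both libraries, 7 of them 10 TPM. The A and B classes held nearly equal sums, 116 ± 6.42 TPM over 9 genes and 114 ± 11.8 TPM over 5 genes (SD, n = 2). Ephb4 (chr5:137350109-137378669), the receptor known from veins, led with 51.85 and 56.51 TPM. Epha7 had 35.54 and 37.59 TPM, and Epha4, which guides motor axons into the limb, had 27.12 and 31.87 TPM. Ephb3 was at 27.46 TPM in replicate 1 against 36.28 TPM in replicate 2, a log2 difference of 0.42 that passed its yardstick of 0.37. Epha4 was 2.12-fold above Epha3 in TPM, a log2 ratio of 1.09 ± 0.27 (SD, n = 2), and it was not separated from Epha7, at -0.31 ± 0.11 against a yardstick of 0.49. Ephb4 was 7.11-fold above Ephb2 in TPM, and Ephb2 was 4.29-fold above Ephb1. Ephb2 had 6.12 and 9.25 TPM and Ephb1 had 1.34 and 2.09 TPM, both higher in replicate 2 but inside the yardstick for their levels. Ephb6, a receptor without kinase activity, had 19.29 and 18.62 TPM, and Epha3 had 14.49 and 13.11 TPM. Epha5, at 5.57 and 5.37 TPM, Epha2, at 5.22 and 5.33 TPM, and Epha8, at 1.89 and 2.07 TPM, filled the lower range and were closely alike in the pools.

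At the other end, Epha6 had 0.42 and 0.44 TPM, and Epha10, which lacks kinase activity, had 0.04 and 0.06 TPM from 4 and 8 counts. A gene at 0 counts could still have up to 3, equal after scaling by library size to 0.0855 CPM and 0.0718 CPM in the 2 libraries, from counting error alone. Epha1 had 20.92 and 24.45 TPM, and it overlaps the gene Zyx on the other strand over 1727 nt. Zyx had 112.98 and 86.20 TPM, and how far its reads entered Epha1 was not tested.

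Ephrins, the ligands of Eph receptors, were the most even family. All 8 exceeded 10 TPM in both libraries. The membrane-anchored A class held 196 ± 4.02 TPM over 5 genes, and the transmembrane B class held 77.1 ± 6.89 TPM over 3 genes (SD, n = 2). Efna1 had 54.24 and 49.06 TPM, Efna5 had 45.29 and 51.08 TPM, and Efna3 had 44.83 and 45.98 TPM. Efna5, an ephrin that repels Epha4-bearing axons, was 2.05-fold above Efna2 in TPM. Efna1, Efna3 and Efna4 lie side by side on one strand of chromosome 3, with gaps of 32756 and 10424 nt, and Efna4 had 25.73 and 28.33 TPM. Each of the 3 neighbours was thus abundant in both pools. Efna2 had 22.81 and 24.13 TPM.

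Efnb2, the ephrin known from arteries and the partner of Ephb4, was the lowest ephrin by mean TPM. It was at 17.34 TPM in replicate 1 against 24.33 TPM in replicate 2, where Efna2 was slightly lower. The log2 difference was 0.51, just past the yardstick of 0.47. Efnb2 lay under Ephb4 in both libraries, with a log2 ratio of -1.39 ± 0.26 (SD, n = 2), a 2.63-fold lower level in TPM. Efnb1 had 31.35 and 30.30 TPM, and its ratio over Efnb2, 0.58 ± 0.38 in log2, passed the yardstick of 0.49 in 1 library only. Efnb3 had 23.55 and 27.36 TPM.

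The Slit and Robo genes were split between abundant and nearly silent members. Slit2 had 17.25 and 19.67 TPM and Slit3 had 15.34 and 17.12 TPM, while Slit1 had 0.53 and 0.23 TPM from 50 and 34 counts. Slit2 over Slit3 was 0.18 ± 0.02 in log2 TPM (SD, n = 2), inside the yardstick of 0.47. Robo2 had 44.46 and 41.38 TPM, and Robo1 had 19.99 and 23.11 TPM. Robo4, a receptor of endothelial cells, had 10.63 and 8.52 TPM. Robo1 was 2.25-fold above Robo4 in TPM, a log2 ratio of 1.17 ± 0.37 (SD, n = 2). The 6 endothelial markers summed to 163 and 140 TPM, none was at 0, and their part in the level of Robo4 was not tested. Robo3, which acts in axons that cross the midline, had 0.05 and 0.09 TPM from 3 and 9 counts. Robo3 and Robo4 end 553 nt apart on opposite strands of chromosome 9, so adjacent genes of one family stood at very different levels.

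Netrins were the lowest ligand family. Ntn1 (chr11:68209364-68400823), the classical netrin, had 6.92 and 7.42 TPM. Ntn4 had 0.37 and 0.94 TPM, and Ntn1 over Ntn4 was 3.38 ± 0.74 in log2 TPM (SD, n = 2). At 3.90 and 2.85, this ratio passed the yardstick of 3.44 in replicate 1 only. The yardstick is wide here because genes of any type as low in TPM as Ntn4 vary widely between the libraries. Of the receptors, Neo1 had 22.05 and 28.27 TPM. Dcc, the receptor of netrin attraction in axons, had 0.90 and 0.73 TPM, from 98 counts in each library. Neo1 was 27.5-fold above Dcc in TPM, a log2 ratio of 4.78 ± 0.44 (SD, n = 2) against a yardstick of 2.81. Unc5b and Unc5c, receptors of netrin repulsion, had 6.86 and 6.69 TPM and 6.90 and 6.08 TPM, a log2 ratio of 0.06 ± 0.10 (SD, n = 2). Unc5d had 0.88 and 1.02 TPM.

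Markers of nerve were measured beside the guidance genes. Of 12 neuron markers, 6 reached 1 TPM in both libraries, and the list summed to 71.6 and 75.7 TPM. Its 3 highest were Gap43 with 40.52 and 36.62 TPM, Stmn2 with 9.86 and 9.81 TPM, and Nefl with 7.69 and 11.49 TPM. Chat, the enzyme that makes acetylcholine in motor neurons, was at 0 counts in both libraries, which allows up to 3 counts in each. The 6 Schwann cell markers summed to 38.5 and 34.0 TPM. What part of the guidance genes' RNA came from nerve was not tested.

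A large part of the level of some genes lay in transcripts that are not annotated as coding. For each gene with a mean of 10 TPM or more, the TPM of its transcripts annotated protein coding was divided by its whole TPM. The median over the 35 guidance genes was 99.1%, against 97.6% over the 9109 protein-coding genes at that level. Under 60% lay 4 of the 35 genes (11.4%), against 11.5% of the 9109, so such genes were about as frequent among guidance genes as elsewhere. The 4 were Plxnb2, Sema6a, Epha7 and Slit2.

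In Plxnb2 a short transcript held much of the level. Its coding transcript Plxnb2-202, of 6377 nt, held 45.4% of the gene's TPM in replicate 1 and 47.8% in replicate 2. The noncoding Plxnb2-205, of only 841 nt, held 40.9% and 47.0%. By counts the same transcripts held 83.7% and 88.0%, and 8.90% and 10.2%. Divided by length, the short transcript thus reached the level of the coding one from far fewer counts. Coding transcripts alone gave Plxnb2 55.26 and 56.33 TPM, against 51.85 and 56.33 TPM for Ephb4, so the 2 genes were level in replicate 2.

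In Robo2 the most abundant transcript in both libraries was Robo2-209, a retained intron of 4057 nt with 30.7% and 32.5% of the TPM. The 535 nt Robo2-204, annotated as coding, held a further 19.1% and 16.5% from 2.29% and 1.71% of the counts. In Slit2 a retained intron, Slit2-207, led in replicate 1 with 39.7% and the coding Slit2-202 led in replicate 2 with 40.5%. The shares of these 2 transcripts were within 2 percentage points of each other in each library, so their order was not separated. Epha7-208, a processed transcript without a coding frame, held 25.9% and 28.2% of Epha7. Sema3c-205, a retained intron, held 26.8% and 25.9% of Sema3c.

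Of the 26 genes with a mean of at least 10 TPM and at least 2 annotated transcripts, 23 had the same leading transcript in both libraries. The exceptions were Slit2, Sema6a and Sema4c. Epha5, at a lower level, was led by the retained intron Epha5-207, with 49.0% and 47.8% of its TPM. In 8 genes the leading transcript held at least 90% in both libraries, Efna1, Efna3, Efna5, Efnb1 and Efnb2 among them. The ephrins also stood at 99.2% coding TPM as a family, so their levels depended little on how transcripts were counted. The Slits stood at 57.6% and the plexins at 63.2%, but single genes weighed heavily in both. Slit2 had 41.9% and 40.7% against 77.4% and 73.9% in Slit3. Plxnb2 had 48.4% and 48.3% and Plxna3 64.6% and 57.6%, while Plxna1, Plxnd1, Plxna4 and Plxnc1 were at 100%.

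**Figure D2:**
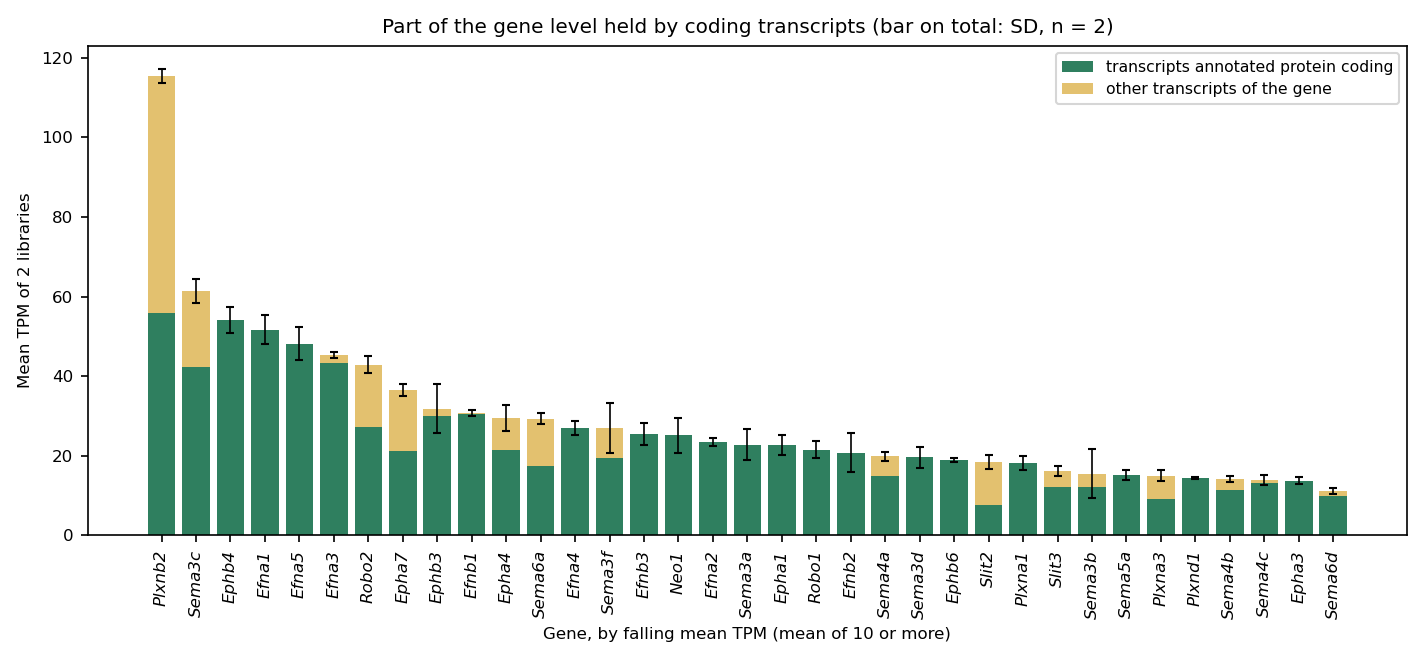
Mean TPM of the 2 libraries (bars, SD on the total, n = 2) for the 35 genes with a mean of 10 TPM or more, split into transcripts annotated protein coding and other transcripts. Plxnb2 is 115 TPM in all and 55.8 TPM in coding transcripts, while the ephrins are almost wholly coding.

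Of the 21 pair ratios, 14 were past their yardstick in both libraries. On coding transcripts, Robo1 over Robo2 moved from -0.99 ± 0.22 to -0.34 ± 0.25 in log2 (SD, n = 2). Its mean then lay inside the yardstick of 0.47, and it was no longer past the yardstick in both libraries. On counts the mean ratio was -0.07. Slit2 over Slit3 moved from 0.18 to -0.68 on coding transcripts, past its yardstick of 0.47 in both libraries, with Slit3 the higher. Unc5b over Unc5c moved from 0.06 to 1.06, past its yardstick of 0.81 in both libraries. Sema3a over Sema3f moved from -0.23 to 0.24 and stayed inside its yardstick of 0.49. Epha4 over Epha3 moved from 1.09 to 0.63 and Ephb2 over Ephb1 from 2.10 to 1.71, which took both inside what the yardstick allows in at least 1 library. All the others of the 14 stayed past the yardstick in both libraries on coding transcripts. Neo1 over Dcc, Ephb4 over Ephb2, Efna5 over Efna2, Efnb2 under Ephb4 and Plxnb2 over Plxnb1 were among them.

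**Figure D3:**
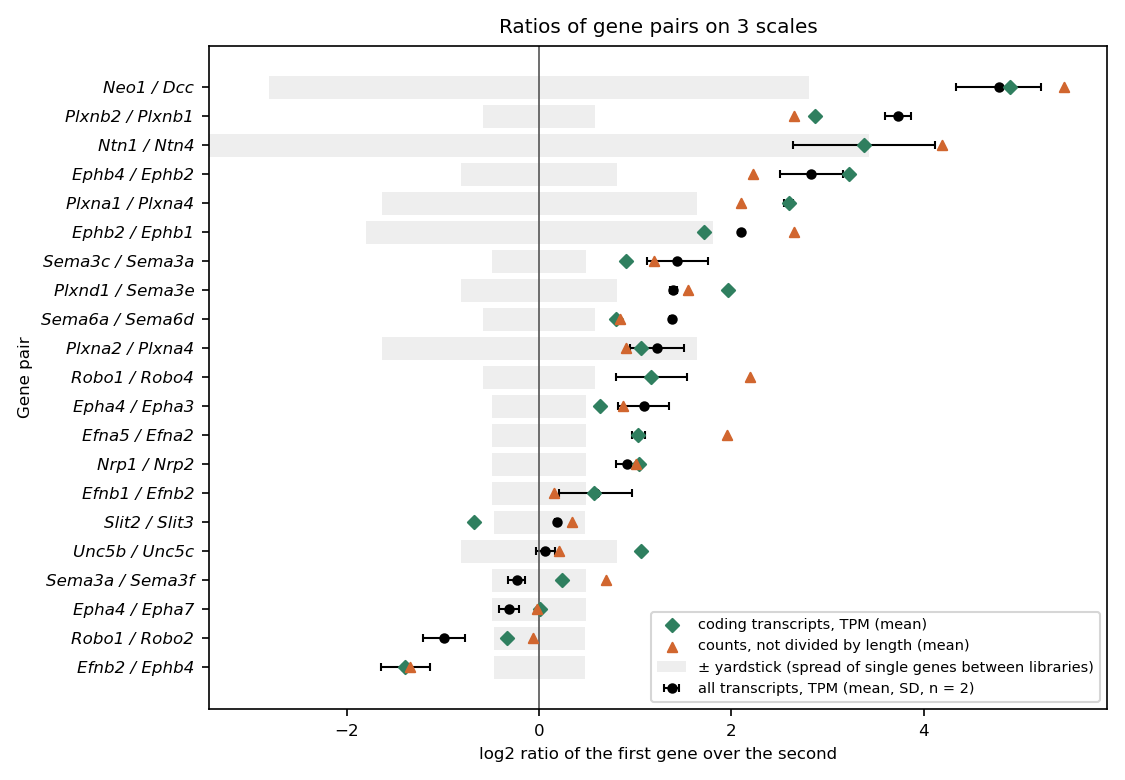
Log2 ratio of the first gene over the second for 21 pairs, from TPM of all transcripts (black, mean and SD, n = 2), TPM of coding transcripts (diamonds) and counts not divided by length (triangles). Grey bands are the yardstick. Robo1 / Robo2 moves from -0.99 to -0.34 and Unc5b / Unc5c from 0.06 to 1.06 on coding transcripts.

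The 2 pools were close for most guidance genes. Over the 58 genes with a mean of at least 1 TPM, the log2 difference between the pools had a median of 0.13. It was taken from TPM + 0.1, with replicate 1 subtracted from replicate 2 and the median gene set to 0. Above 0 lay 35 genes and below 0 lay 23, and 43 of the 58 (74.1%) were within 1.2-fold, against 74.3% of all genes tested. The median size of the difference was 0.19 in log2, against 0.13 over all 15571 genes at that level. More than 2-fold apart were 2 of the 58 (3.45%), against 3.63% of all genes tested. Both were higher in replicate 1, as were 2.47% of all genes tested, and none of the 35 guidance genes with a mean of 10 TPM or more was 2-fold apart, against 1.32% of all genes at that level. Past the yardstick for its level were 5 of the 58 (8.62%): Ntn5, Sema3b, Sema3f, Efnb2 and Ephb3. Over all genes the share was 4.99%, which the definition of the yardstick largely fixes in advance. The share of guidance genes that differed 2-fold was thus near the background.

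Ntn5 (chr7:45684022-45694556), a small netrin, was at 2.17 TPM in replicate 1 against 0.41 TPM in replicate 2, from 72.95 and 17 expected counts. The authors' deposited intervals, which cover counting and the assignment of reads but not the spread between pools, were 1.68 to 2.70 TPM and 0.28 to 0.71 TPM. They do not overlap, and the log2 difference was -2.13. Unc5a (chr13:54949411-55006018) had 1.92 and 0.79 TPM from 137 and 75 counts, a log2 difference of -1.16. Its deposited intervals, 1.63 to 3.35 TPM and 0.76 to 1.84 TPM, overlap. With 1 added to TPM in place of 0.1, the difference of Unc5a was -0.68 and it was no longer 2-fold apart.

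Markers of other tissue parts differed between the same pools. The 6 skeletal muscle markers summed to 4630 TPM in replicate 1 but 1302 TPM in replicate 2, and 5 of the 6 were over 2-fold higher in replicate 1. Osteoblast markers summed to 763 and 401 TPM, with 1 of 6 over 2-fold higher in replicate 1. Cartilage markers summed to 1127 and 1178 TPM and epidermal markers to 3393 and 3217 TPM, with none 2-fold apart. Connective tissue markers summed to 9785 and 8405 TPM and macrophage markers to 287 and 243 TPM, again with none 2-fold apart. No list but the neuron list had a marker at 0 in both libraries. The part of these differences in the values of Ntn5, Unc5a and Sema3b was not tested.

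For a few genes the direction between pools depended on the scale. Unc5c had 6.90 and 6.08 TPM but 676 and 1026 counts, so its log2 difference was -0.16 from TPM and 0.35 from scaled counts. The 357 nt noncoding Unc5c-206 held 38.3% of its TPM in replicate 1 and 22.0% in replicate 2, and on coding transcripts the difference was 0.45. Sema6c differed by -0.23 from TPM and 0.12 from counts, and Robo2 by -0.08 and 0.15. In all, 6 of the 58 genes changed sign between the scales, and the others of these were Plxnd1, Epha5 and Unc5b, with differences near 0.

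**Figure D4:**
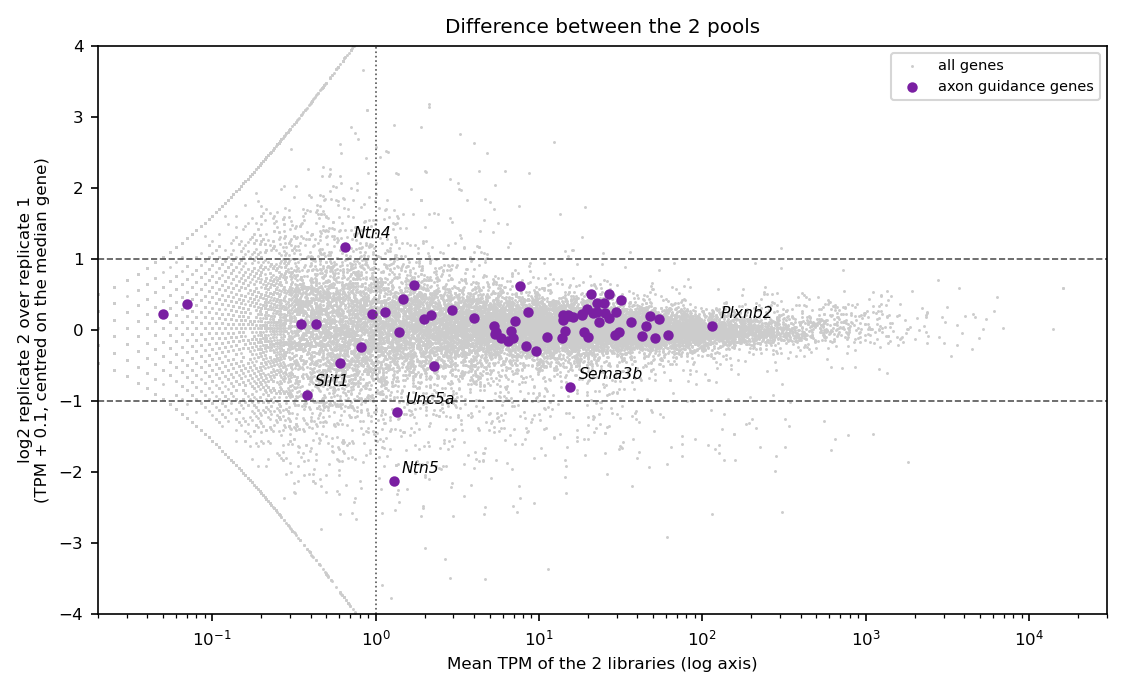
Log2 difference of replicate 2 from replicate 1 (TPM + 0.1, the median gene at 0) against mean TPM (log axis), for all genes with a mean of at least 0.02 TPM within the plotted range (grey) and the 67 guidance genes (purple). Dashed lines mark 2-fold and the dotted line 1 TPM. Right of it only Ntn5 (-2.13) and Unc5a (-1.16) pass the dashed lines, and Ntn4 (1.17) passes at a mean under 1 TPM.

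Genes that carry or modify the receptors' signals were measured as well. Of 46 such genes, nearly all acting inside the cell (Adam10, a protease at the cell surface, is an exception), 45 reached 1 TPM in both libraries and 28 reached 10 TPM. The 3 highest were the actin-severing Cfl1 with 1630 and 1490 TPM, and the small GTPases Cdc42 with 623 and 593 TPM and Rhoa with 396 and 388 TPM. Dpysl2, a collapsin response mediator of semaphorin signals, had 144 and 151 TPM. Dpysl2 and Adam10 were chosen after their values were seen.

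The sequence before the start site was read for the genes whose RefSeq promoter lies within 100 nt of the start of their most abundant coding transcript. That held for 44 guidance genes and for 13260 protein-coding genes in all, in windows of 300 bases (250 before the RefSeq start and 50 after). CpG dinucleotides numbered 23 per window in the median guidance gene and 15 over all. Windows of guidance genes at 10 TPM or more had a median of 22.5 CpG (24 genes), against 22 over all genes at that level. Those at 1 to 10 TPM had 24.5 (16 genes) against 17, and those under 1 TPM had 20 (4 genes) against 3. Under 5 CpG lay 2 of the 44 (4.55%), against 27.0% of all. The TATA motif TATAAA occurred on either strand in 2 of the 44 (4.55%, Efnb2 and Slit2), against 13.3% of all windows. The GC box GGGCGG occurred in 35 of the 44 (79.5%) against 49.7%, and CCAAT in 14 (31.8%) against 39.3%. These shares vary with level: at 10 TPM or more TATAAA was in 8.33% of 24 guidance genes against 7.03% of all, GGGCGG in 83.3% against 69.1%, and CCAAT in 33.3% against 40.2%. Under 1 TPM, 24.0% of all windows held TATAAA. A match describes letters and not a bound site.

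The 4 stretches of 250 bases that end at the RefSeq start were picked to set CpG content beside level, Epha8 because its window has the most CpG of the 44, with every CpG in capitals and build GRCm38.p6. Plxnb2 (chr15:89180789-89181038, minus strand) is the highest gene and has 20 CpG. Epha8 (chr4:136956817-136957066, minus strand), at only 1.89 and 2.07 TPM, has 46 CpG. Sema7a (chr9:57939862-57940111, plus strand), the lowest semaphorin, has 17 CpG. Plxnb3 (chrX:73756853-73757102, plus strand), the lowest plexin, has 3 CpG.
Plxnb2: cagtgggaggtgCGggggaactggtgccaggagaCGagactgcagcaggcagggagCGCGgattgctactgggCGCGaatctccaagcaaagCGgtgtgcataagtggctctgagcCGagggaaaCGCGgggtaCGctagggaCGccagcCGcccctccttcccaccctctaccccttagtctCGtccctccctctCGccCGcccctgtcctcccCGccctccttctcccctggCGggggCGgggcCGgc
Epha8: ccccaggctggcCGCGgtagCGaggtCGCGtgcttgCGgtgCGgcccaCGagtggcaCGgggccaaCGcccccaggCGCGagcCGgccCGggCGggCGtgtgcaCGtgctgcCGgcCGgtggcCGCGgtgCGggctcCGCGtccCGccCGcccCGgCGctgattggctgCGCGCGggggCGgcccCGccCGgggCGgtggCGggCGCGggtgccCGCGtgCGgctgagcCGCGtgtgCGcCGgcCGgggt
Sema7a: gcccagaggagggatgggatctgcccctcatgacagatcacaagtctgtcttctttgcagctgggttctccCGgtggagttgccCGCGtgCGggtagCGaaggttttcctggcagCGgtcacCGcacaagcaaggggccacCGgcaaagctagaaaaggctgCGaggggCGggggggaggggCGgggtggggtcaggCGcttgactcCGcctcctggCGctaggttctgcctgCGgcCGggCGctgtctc
Plxnb3: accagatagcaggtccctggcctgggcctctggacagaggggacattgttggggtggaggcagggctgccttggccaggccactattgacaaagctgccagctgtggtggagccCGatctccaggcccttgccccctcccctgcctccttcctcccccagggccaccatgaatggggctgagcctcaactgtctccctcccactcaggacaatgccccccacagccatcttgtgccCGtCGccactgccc
The 4 show the letters behind the counts and, being picked, bear on no relation between CpG and level.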

How the data were processed

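Total RNA of 2 pooled limb samples was sequenced from 10 ng of RNA over 200 nt, per the labels. The authors deposited gene and transcript tables with expected counts (estimated counts, not always whole), TPM, posterior mean TPM, FPKM and, for transcripts, percent of the gene. The bounds of the authors' TPM intervals were treated as a signal in TPM units, as deposited. Per the deposited sample records the assembly was mm10 and the annotation GENCODE M4. Neither the aligner nor the counter is given in the sources used here. Symbols, positions and transcript types came from GENCODE M21 (GRCm38), and 884 of 43346 gene rows had none. Promoters came from RefSeq.

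Differences are log2 of TPM + 0.1, centred on the median gene with a mean of 1 TPM or more. The yardstick used 20 bins of mean TPM over all detected genes, coding or not. Bins went by TPM and not by counts, so genes of 1 bin can rest on very different counts. With n = 2 and 1 group no test was made, and SDs rest on 2 pools. Scaling alternatives used edgeR 4.0.16 and DESeq2 1.42.0 in R 4.3.3 on rounded expected counts. Other steps used Python 3.11.15, numpy 2.4.6 and pandas 2.3.3. Of these, only the log2 difference between the 2 libraries was tested on simulated data. Named were the 3 highest and the lowest gene of each family, those 2-fold apart, all 21 pairs, and the 3 highest of the co-receptor, effector and neuron lists. Other genes were chosen after their values were seen, and cell type lists are given as sums. The genes and lists were chosen with earlier results of these data known.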

Additional observations from a re-analysis of the deposited data

How the results depend on the processing

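The share of gene TPM held by the guidance genes, 0.119%, was 0.135% with TPM rescaled to protein-coding genes and 0.0985% on coding transcripts. The 2 genes over 2-fold apart became 1 with a pseudocount of 1 (2.41% of all genes), 1 with posterior mean TPM (2.81%), 1 among genes whose higher library held 100 counts or more (1.86%), and 0 with a mean TPM of at least 10 (1.31%), so the share over all genes fell too. Without a filter on TPM there were 3, against 10.7% of all genes. Coding transcripts and the 100-count minimum were chosen after seeing the data. Unc5a was -0.89 in log2 with posterior mean TPM. The 1 gene whose leading transcript was noncoding in both libraries (Robo2) became 2 with a mean TPM of at least 5. Among the pair ratios, 108 of the recomputed values were classed as unchanged, 13 moved and 5 were no longer past the yardstick. For pairs past it in both libraries, unchanged means still past it. For the rest it means a shift under the SD, whichever side of the yardstick resulted. Leaving out replicate 1 or replicate 2 gave 21 of the 108 each. With n = 2 the rule fixed those in advance, so they show nothing about stability. From 1 library alone, 57 or 58 genes reached 1 TPM, 35 or 36 reached 10 TPM (26 reached 10 FPKM, and 31 reached 10 TPM on coding transcripts, in both libraries), and the share was 0.116% or 0.122%. With 2 pools the SD is itself poorly known. Genes under 1 TPM in both libraries rest on between 3 counts (Robo3, replicate 1) and 98 counts (Dcc) in a library. Level is no sure guide to counts: Ntn5, with a mean of 1.29 TPM, rests on 72.95 and 17. No paired analysis was possible because there was 1 group.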
